A study of Mus musculus with 20 samples.

Results

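The interval of chromosome 11 around Cuedc1 held 557 probes that carried 376 gene or transcript names, out of 41174 probes and 27674 names on the array. Members were the non-control probes placed by the array files on chromosome 11 between 76 and 96 Mb, without Acaca and without the chemokine genes named Ccl plus a number, which removed 17 probes of 12 genes. The interval was chosen by the differences of Cuedc1 and its neighbours between uninjured Myd88KO and uninjured wild-type tracheas. Those differences are therefore given as a description, without a p value, and the injured tracheas came from other mice. Of the 557 probes, 366 (247 names) passed the filter for testing, a signal well above background on 10 or more of the 20 arrays, and 108 were above background on no array.

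Whole tracheas from male and female mice, 4 months old per the labels and adults of a wider age range per the methods, were collected in 4 groups of 5, each group from several litters. Wild-type mice were of the C57/Bl6 strain and carried intact Myd88. Myd88KO mice lacked the gene, which encodes the adaptor of Toll-like and interleukin-1 receptors. The mutant line had been back-crossed to the C57/Bl6JOlaHsd strain for several generations and was bred as a knockout colony apart from the wild-type colony, so that loss of Myd88 and any other difference between the colonies cannot be told apart in either genotype comparison. Injured mice received 2% polidocanol, which strips the surface epithelium as a detergent, and were killed on day 3, whereas uninjured mice received none. The study asked how Myd88 contributes to the tracheal epithelium at rest and during repair. In whole tissue, fewer cells of a type and less RNA per cell cannot be told apart.

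Cuedc1 encodes a protein with a CUE domain, a small fold that binds ubiquitin. Its stretch of chromosome 11 also holds the genes of the heme peroxidases Mpo, Epx and Lpo. Lactoperoxidase, the product of Lpo, is secreted by airway glands and uses hydrogen peroxide to make antimicrobial compounds in airway mucus. Tubd1 encodes delta-tubulin, a tubulin of centrioles, and Gdpd1 encodes an enzyme that cleaves glycerophospholipids. Genes that lie close together on a chromosome tend to be inherited together. Myd88 lies on another chromosome.

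The positions below are those of the array files, whose genome build is not stated. Promoter sequences of the named genes that differed in injured tracheas were taken from RefSeq (GRCm38.p6) and are shown 5′ to 3′ as windows of 300 bases around each listed start, most of it upstream, since they are the regulatory sequence nearest to the transcripts that the results turn on. Both starts listed for Cuedc1 are given, and Brip1os is named only. The promoter coordinates belong to GRCm38.p6 and are not comparable with the probe positions. Capitals mark the GC box (GGGCGG) and the CCAAT box (CCAAT), on either strand.

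Tubd1 (chr11:86544741-86545040, plus strand): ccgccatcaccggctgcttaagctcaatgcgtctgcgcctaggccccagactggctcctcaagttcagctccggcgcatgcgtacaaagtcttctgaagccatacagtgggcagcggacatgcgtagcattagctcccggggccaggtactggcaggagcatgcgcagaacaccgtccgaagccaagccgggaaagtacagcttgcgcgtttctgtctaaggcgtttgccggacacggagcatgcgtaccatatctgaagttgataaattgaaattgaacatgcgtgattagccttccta

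Gdpd1 (chr11:87074088-87074387, minus strand): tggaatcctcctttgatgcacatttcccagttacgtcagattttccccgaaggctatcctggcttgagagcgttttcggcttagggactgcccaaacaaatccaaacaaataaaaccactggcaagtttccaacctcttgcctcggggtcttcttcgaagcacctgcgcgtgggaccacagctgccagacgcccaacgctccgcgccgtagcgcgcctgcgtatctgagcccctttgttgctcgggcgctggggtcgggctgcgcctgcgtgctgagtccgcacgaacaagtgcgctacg

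Lpo (chr11:87826065-87826364, minus strand): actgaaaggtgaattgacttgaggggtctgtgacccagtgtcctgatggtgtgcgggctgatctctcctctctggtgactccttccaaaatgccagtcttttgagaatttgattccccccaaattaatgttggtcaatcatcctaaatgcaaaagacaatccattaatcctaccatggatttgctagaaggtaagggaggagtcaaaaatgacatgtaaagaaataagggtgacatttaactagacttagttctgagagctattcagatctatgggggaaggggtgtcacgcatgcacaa

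Cuedc1, first start (chr11:88098896-88099195, plus strand): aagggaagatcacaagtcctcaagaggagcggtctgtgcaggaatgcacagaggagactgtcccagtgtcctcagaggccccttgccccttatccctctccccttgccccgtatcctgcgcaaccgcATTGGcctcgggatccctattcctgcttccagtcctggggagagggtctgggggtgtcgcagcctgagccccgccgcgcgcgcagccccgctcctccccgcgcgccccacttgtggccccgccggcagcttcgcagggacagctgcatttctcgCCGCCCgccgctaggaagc

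Cuedc1, second start (chr11:88169315-88169614, plus strand): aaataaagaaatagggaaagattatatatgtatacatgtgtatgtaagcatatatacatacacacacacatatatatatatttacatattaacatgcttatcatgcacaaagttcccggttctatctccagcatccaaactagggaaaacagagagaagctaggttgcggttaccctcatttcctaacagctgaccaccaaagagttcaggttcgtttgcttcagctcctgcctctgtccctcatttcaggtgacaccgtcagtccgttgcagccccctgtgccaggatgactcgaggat

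Each sequence was searched on both strands for the TATA box (TATAAA), the GC box, the E box (CACGTG), the CCAAT box and the NF-kB consensus. The first start of Cuedc1 held 1 GC box and 1 CCAAT box, and the other 4 windows held none of the 5 motifs. Of all 32851 promoters of this length, 13.6% held the TATA box, 35.7% the GC box, 7.15% the E box, 37.4% the CCAAT box and 8.46% the NF-kB consensus. The CG dinucleotide occurred 22 times at the first and 6 times at the second start of Cuedc1, 21 times at Tubd1, 25 times at Gdpd1 and 2 times at Lpo, against a median of 7. These matches describe the letters only.

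Signals are log2 intensities relative to the 75th percentile of each array, so that 0 is the level below which 75% of the probes lay. Probes were well above background for 57.5% to 67.8% of spots per array, with the lowest share in injured Myd88KO replicate 5. The Myd88 probe read 1.60 to 2.04 in uninjured Myd88KO and 1.94 to 2.28 in uninjured wild-type tracheas, and 1.54 to 2.09 against 2.36 to 2.80 after injury. Whether that probe lies in the deleted part is not given in the sources used here, so it is no check of the labels. All listed markers of secretory (Scgb1a1, Scgb3a2), basal (Krt5, Krt14, Trp63), ciliated (Foxj1, Dnah5), cartilage (Col2a1, Acan) and smooth muscle cells (Myh11, Acta2) were well above background on all 20 arrays, as were the thyroid gene Tg and the muscle genes Acta1 and Ckm. All 4 groups were represented once on each of the 5 slides. The injured Myd88KO tracheas were widely spread in Scgb3a2, a secretory cell marker, which read 7.94, 3.07, 5.52, 3.21 and 9.10, against 2.59 to 4.16 in injured wild-type and 8.59 to 9.43 in uninjured Myd88KO tracheas. Replicates 1 and 5 were the highest of them. In every group, replicates 1 and 5 were the arrays scanned on the second of 2 days. Among injured wild-type tracheas, replicates 1 and 5 read lowest, at 2.68 and 2.59. Injured Myd88KO replicate 5 read within the range of the uninjured Myd88KO tracheas. The part of scanning day or of a single trachea in this spread was not tested. The summed level of the brown fat markers Ucp1 and Cidea was 82.5 to 108 in uninjured Myd88KO and 21.7 to 48.3 in uninjured wild-type tracheas. After injury it was 20.6 to 94.5 and 6.88 to 53.5, so that the groups overlapped. Neither Ucp1 nor Cidea was called, with limma adjusted p values of 0.199 and 0.233 without injury and 0.195 and 0.387 after it. Of the heart markers, Myh6 was called higher in Myd88KO tracheas in both states, by 1.74 and 1.67 (limma adjusted p 0.000757 and 0.00124), above background on 3 wild-type arrays in each, and Nppa differed by 0.09 and -0.33. The part of these markers in the differences below was not tested.

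In injured tracheas, Cuedc1 was higher in Myd88KO than in wild-type mice by 9.31-fold and 4.77-fold at its 2 probes, while Lpo, Tubd1, 1 of 2 Gdpd1 probes, Brip1os and the unidentified transcript TC1415719 were lower. With an unnamed probe that was also higher, 8 of the 366 tested members (2.19%) passed an adjusted p under 0.01 (limma), 3 higher and 5 lower. The unnamed probe and TC1415719 passed the filter only through the genotype in which they were bright, and so had to differ. With a signal above background required on all 20 arrays, 6 of 302 members were called, beside 0.290% of all probes. Over all 26063 probes tested, 0.380% were called, 0.150% higher and 0.230% lower, and the shares were 0.583% in the rest of chromosome 11 and 0.340% on the other chromosomes. These shares were set side by side without a test. The called probes of Brip1os, Tubd1, Gdpd1, Lpo and Cuedc1 lay between 86279275 and 88257985. When only the 10 injured arrays were fitted, 4 of the 8 were called: both Cuedc1 probes, the unnamed probe and TC1415719.

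In the uninjured tracheas, whose values chose the interval, 8 members (2.19%) were called, 5 higher and 3 lower, beside 0.384% of all probes, of which 0.188% were higher and 0.196% lower. Nothing is read from this count. They included 6 of the 8 probes called after injury, namely both Cuedc1 probes, the unnamed probe, Tubd1, 1 Gdpd1 probe and TC1415719. Gosr1 and Aldoc were called in uninjured tracheas only, and Lpo and Brip1os in injured tracheas only. Being called in one comparison and not in the other does not show a difference between them, and the test of that difference called none of the 366 members (below).

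**Figure D1:**
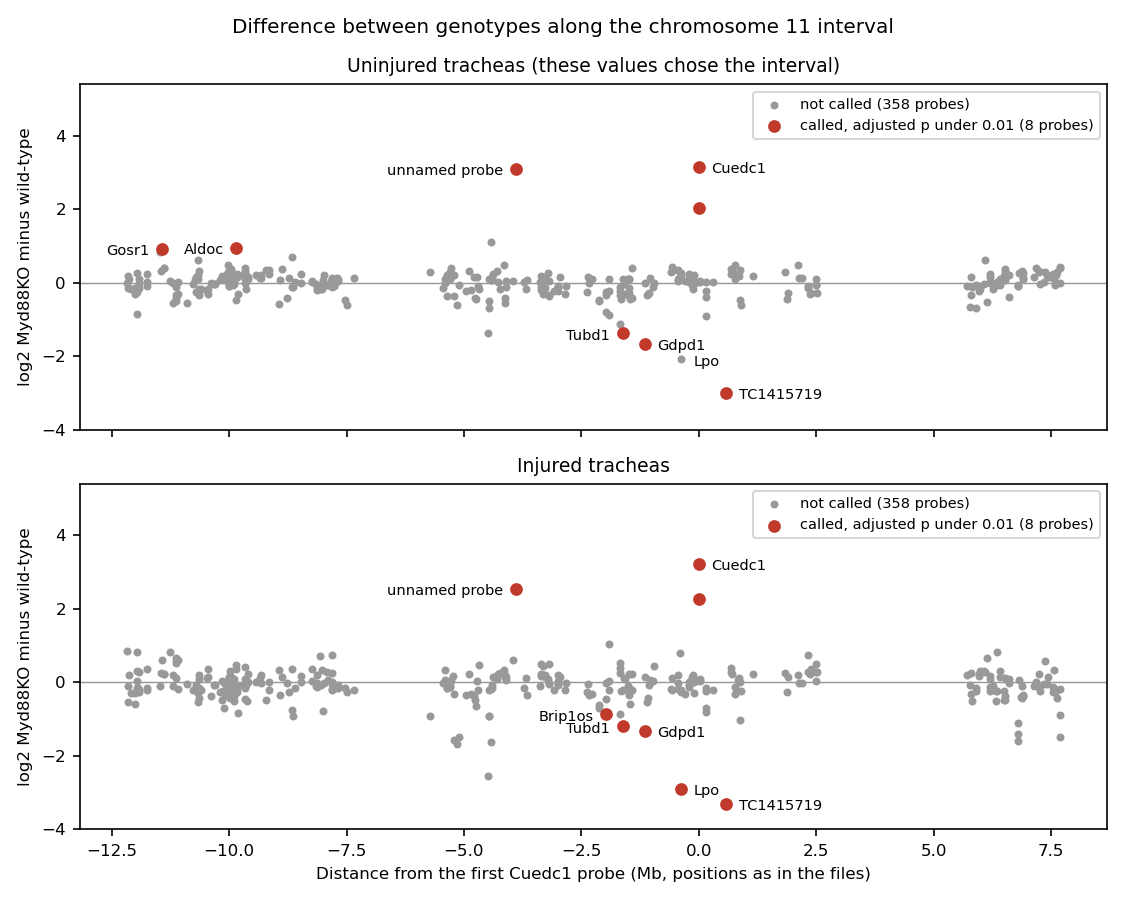
Difference between Myd88KO and wild-type tracheas (y axis, log2) for the 366 tested members, by distance from the first Cuedc1 probe (x axis, Mb, positions as in the files), in uninjured (top) and injured (bottom) tracheas. Red points are probes called at an adjusted p under 0.01 (8 in each panel); in injured tracheas both Cuedc1 probes lie at 3.22 and 2.26 and Lpo at -2.89, while the grey point at -2.57 is BC089618, which was not called. The values of the unnamed probe and TC1415719 rest on a group that was not above background.

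Cuedc1 was read by probes at 88254563 to 88254622 and 88257926 to 88257985 on the plus strand. At the first, the 5 uninjured wild-type tracheas read -1.18, -1.65, -0.84, -1.53 and -1.09, and the 5 uninjured Myd88KO tracheas 0.50, 0.89, 0.85, 0.82 and 0.78. The injured wild-type tracheas read -1.73, -1.86, -1.61, -1.78 and -1.75, and the injured Myd88KO tracheas 0.05, 0.61, 0.72, 0.21 and 0.96. Every Myd88KO trachea was above every wild-type trachea in both states. The difference was 2.03 (SE 0.18) without injury and 2.26 (SE 0.18) after it, with an adjusted p of 1.56e-07 in the injured comparison (limma, n = 5 per group).

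At the second Cuedc1 probe, uninjured wild-type tracheas read -2.0, -2.02, -2.25, -1.76 and -1.53, and uninjured Myd88KO tracheas 1.1, 1.33, 1.15, 1.37 and 1.24. Injured wild-type tracheas read -2.07, -2.58, -2.61, -2.29 and -2.14, and injured Myd88KO tracheas 0.42, 0.89, 1.08, 0.54 and 1.48. The groups again did not overlap. The difference was 3.15 (SE 0.19) without injury and 3.22 (SE 0.19) after it, a 9.31-fold higher signal (95% interval 7.10 to 12.2) with a limma adjusted p of 1.64e-09. Within slides the injured difference ran from 1.78 to 2.72 at the first probe and from 2.49 to 3.69 at the second, higher in 5 of 5 slides at both. Injury itself moved the probes little: by -0.49 (SE 0.18) and -0.43 (SE 0.19) in wild-type and by -0.26 and -0.36 in Myd88KO mice, none of them called.

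The nearest neighbours of Cuedc1 on both sides were not called. Mrps23, a gene of the mitochondrial ribosome that follows Cuedc1 within 0.03 Mb, differed by 0.08 (95% interval -0.27 to 0.43) and 0.03 (-0.32 to 0.38) at its 2 probes in injured tracheas. The nearest probe on the other side, 2210416O15Rik, lay 0.08 Mb away and differed by 0.06 (-0.50 to 0.61). Vezf1, a zinc finger transcription factor, differed by 0.01 (-0.32 to 0.35), and the splicing factor gene Srsf1 by 0.14 and 0.08. Of the 40 other probes tested within 1 Mb of Cuedc1 (27 names), 2 were called in injured tracheas, Lpo and TC1415719, beside 0.380% of all probes. Of these, TC1415719 passed the filter only through the wild-type arrays, and so had to differ. The rest of the 40 ranged from -1.04 to 0.79. The lower end of that range was Trim25, which encodes a ubiquitin ligase; its other probe differed by 0.00. The Msi2 probes, the nearest of which lay 0.16 Mb away, are described below.

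Lpo (87876483 to 87876542, minus strand, 0.38 Mb from Cuedc1) had the largest fall of a named gene among the injured calls. Uninjured wild-type tracheas read 2.15, 2.68, 1.72, 2.34 and 3.18, and uninjured Myd88KO tracheas 0.55, -0.39, -0.01, 0.06 and 1.41. Injured wild-type tracheas read 2.67, 3.36, 2.73, 3.00 and 1.66, and injured Myd88KO tracheas -0.88, 1.40, 0.49, -0.46 and -1.60. The Myd88KO tracheas lay below the wild-type tracheas in both states, with the widest spread among injured Myd88KO tracheas (SD 1.18). The difference was -2.09 (SE 0.47) without injury and -2.89 (SE 0.47) after it, a 7.44-fold lower signal (95% interval 3.76 to 14.7) with a limma adjusted p of 0.00221. It fell in 5 of 5 slides, by 1.96 to 3.54 on the log2 scale. Without injured Myd88KO replicate 5, which read lowest, it was -2.55 (adjusted p 0.0067), and with the 10 injured arrays alone the adjusted p was 0.0608.

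The other heme peroxidase gene of the interval that was tested was not called in either genotype comparison. Mpo, which encodes the myeloperoxidase of neutrophils and lies beside Lpo in the files, differed by 0.28 without injury and by -0.22 (95% interval -0.71 to 0.28) after it. Its signal was low, at -4.70 to -3.87 in injured Myd88KO tracheas. The lowest signals above background were -5.42 to -4.36 per array, which limits what the Mpo differences can show. Epx, the eosinophil peroxidase gene, was a member but was not tested. Tspoap1, also beside Lpo, differed by 0.79 (0.14 to 1.45; limma adjusted p 0.289).

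Tubd1 (86637007 to 86637066, plus strand) was lower in Myd88KO tracheas. Uninjured wild-type tracheas read -0.18, 0.45, 0.11, 0.12 and -0.18 and uninjured Myd88KO tracheas -1.40, -0.93, -1.29, -1.37 and -1.62. Injured wild-type tracheas read 0.16, 0.79, 0.60, 0.82 and -0.13 and injured Myd88KO tracheas -0.52, -0.68, -0.74, -0.66 and -1.16. The groups did not overlap in either state. The difference was -1.38 without injury and -1.20 (SE 0.19) after it, a 2.30-fold lower signal (limma adjusted p 0.00216), and within slides Tubd1 fell by 0.68 to 1.48 on the log2 scale. The mean injured difference of Tubd1 within slides was -1.43 on the first scanning day and -0.86 on the second. With the 10 injured arrays alone its adjusted p was 0.0634.

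Gdpd1 was split between its probes. The probe listed at 87105164 to 87105519 on the minus strand, which spans 356 bases, read 2.50, 2.09, 2.78, 1.95 and 2.55 in uninjured wild-type and 0.81, 0.57, 0.88, 0.53 and 0.70 in uninjured Myd88KO tracheas. After injury it read 1.57, 2.42, 2.18, 2.28 and 1.72 in wild-type and 0.98, 0.38, 0.95, 0.28 and 0.97 in Myd88KO tracheas. Its groups did not overlap, and it fell by 1.33 on the log2 scale (SE 0.20; limma adjusted p 0.0011). Within slides this injured difference ran from -2.04 to -0.59, with a mean of -1.76 on the first scanning day and -0.67 on the second. The probe at 87103898 to 87103957, which spans 60 bases, read 2.04, 3.23, 2.96, 3.11 and 2.26 in injured wild-type and 3.67, 2.60, 3.12, 2.29 and 2.62 in injured Myd88KO tracheas. Here the groups overlapped, and the difference was 0.14 (95% interval -0.43 to 0.71) after injury and -0.02 without it. The fall at the probe that spans 356 bases was not called with the 10 injured arrays alone (adjusted p 0.0445).

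Brip1os, a transcript on the strand opposite Brip1 (86279275 to 86279334), was lower in injured Myd88KO tracheas. It read 2.66, 2.31, 2.50, 2.45 and 2.34 in injured wild-type and 1.36, 1.92, 1.43, 2.05 and 1.12 in injured Myd88KO tracheas, which did not overlap. The difference was -0.88 (SE 0.16; limma adjusted p 0.00674) after injury and -0.33 without it, where the groups also did not overlap. This call was the least firm of the 8. Its adjusted p was 0.0112 with the slide, that is the replicate number, as a block, and 0.0207 without injured Myd88KO replicate 5.

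In the other fits that left out 1 array, the Brip1os call was lost without each injured wild-type replicate, without injured Myd88KO replicates 1 and 3, without uninjured wild-type replicates 2, 4 and 5 and without uninjured Myd88KO replicates 1 and 2. The highest adjusted p among all 20 such fits was 0.0285. Brip1, the DNA helicase gene on the other strand, differed by -0.62 and -0.71 at its 2 probes (limma adjusted p 0.616 and 0.569).

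Both remaining calls lay at the limit of detection in 1 genotype. The unnamed probe A_52_P541760 (84360192 to 84360250, plus strand) lies within the span that the files list for an Acaca probe. It was well above background on all 10 Myd88KO arrays and on 0 wild-type arrays. It read -2.12, -2.48, -2.56, -1.92 and -2.99 in uninjured and -2.77, -3.77, -3.61, -3.34 and -2.88 in injured Myd88KO tracheas. Against the lowest signals that were above background, it was at least 5.31-fold higher in uninjured and at least 3.26-fold higher in injured Myd88KO than in wild-type tracheas. With normexp background correction its differences were 1.07 and 0.67 on the log2 scale, below these bounds.

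TC1415719, 0.58 Mb past Cuedc1 (88837638 to 88837697, plus strand), had the opposite pattern. It was well above background on all 10 wild-type arrays and on 0 Myd88KO arrays. Wild-type tracheas read -3.0, -3.69, -3.48, -2.89 and -3.0 without injury and -3.85, -3.22, -3.38, -2.90 and -3.52 after it. It was at least 3.49-fold lower in uninjured and at least 3.17-fold lower in injured Myd88KO tracheas. With normexp its differences were -0.85 and -1.03 on the log2 scale, again smaller than the bounds. Each of these bounds sets the mean of the bright group against the lowest signal above background, or the probe's own signal where that was higher.

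**Figure D2:**
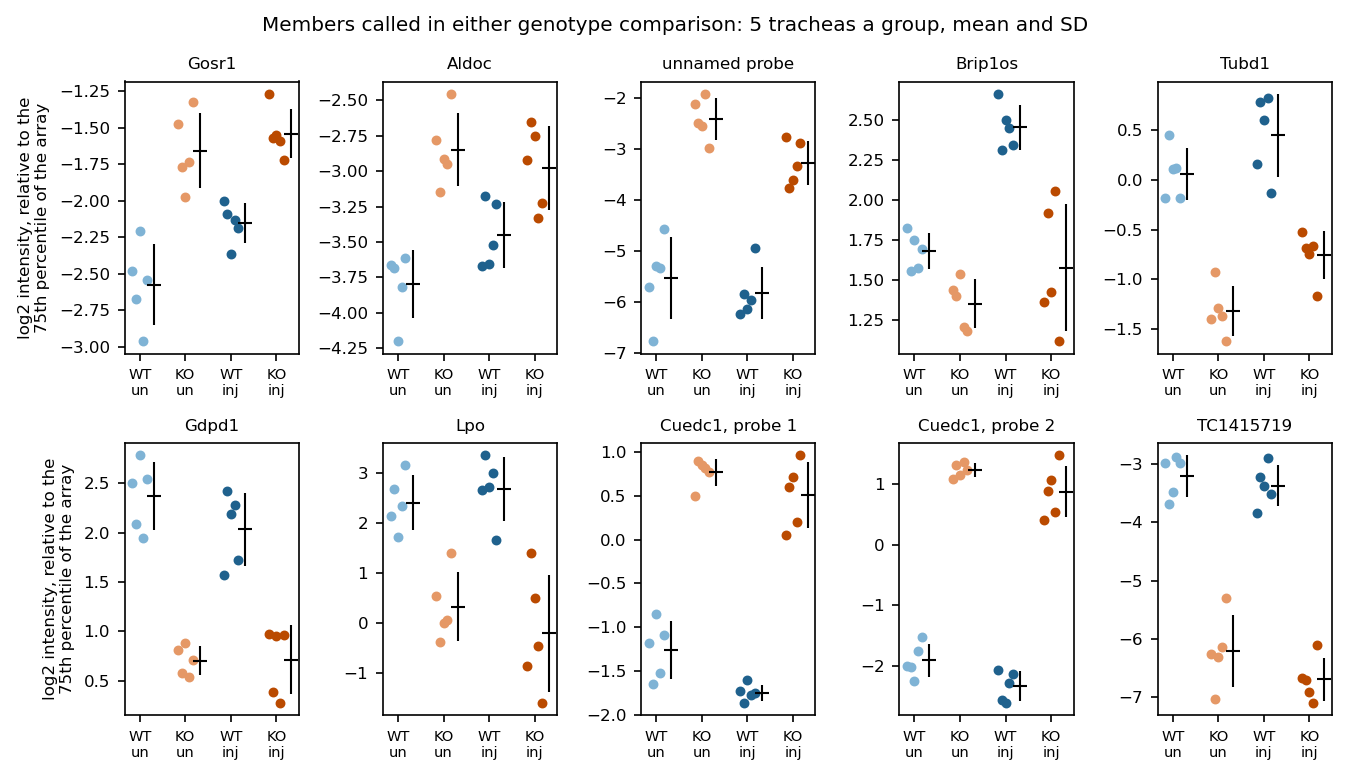
Log2 intensity relative to the 75th percentile of the array (y axis) in each of 5 tracheas of the 4 groups (x axis; WT wild-type, KO Myd88KO, un uninjured, inj injured) for the 10 probes called in either genotype comparison, with the mean and SD at the right of each group; y axes differ between panels. Both Cuedc1 probes are higher and Tubd1, Gdpd1, Lpo and TC1415719 lower in every Myd88KO than in every wild-type trachea of the same state.

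Gosr1 and Aldoc, near the lower end of the interval, were called in uninjured tracheas only, at 1 of 2 probes each. Gosr1, which encodes a SNARE protein of the Golgi, was higher in uninjured Myd88KO tracheas by 0.92 at the probe at 76830082 and by 0.33 at the probe at 76808365. After injury the same probes differed by 0.61 (95% interval 0.30 to 0.93; limma adjusted p 0.0698) and 0.26 (-0.23 to 0.75). Aldoc, the aldolase C gene of glycolysis, was higher by 0.95 and 0.89 at its 2 probes without injury, and by 0.47 and 0.35 (adjusted p 0.244 and 0.457) after it. All 5 uninjured Myd88KO tracheas were above all 5 uninjured wild-type tracheas at both Aldoc probes. The summed brown fat markers given above did not overlap between these groups either. Nor did the summed heart markers Myh6 and Nppa, at 0.212 to 0.303 in uninjured Myd88KO and 0.109 to 0.135 in uninjured wild-type tracheas. A link of Aldoc to any of these markers was not tested. The Aldoc call was lost with normexp (0.53), with no filter on dim probes, with only the 10 uninjured arrays, with the replicate block and in 10 of 20 fits that left out 1 array: those without each uninjured wild-type replicate, without uninjured Myd88KO replicates 1, 3, 4 and 5 and without injured wild-type replicate 4. The Gosr1 call was lost with normexp (0.67), with only the 10 uninjured arrays and without uninjured wild-type replicate 2 or 4 or uninjured Myd88KO replicate 1 or 5.

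Probes of 1 gene could be compared for 87 member genes with 206 tested probes. In injured tracheas the probes of 55 genes had 1 sign, in uninjured tracheas those of 66, and the median range between the probes of a gene was 0.21 and 0.13 on the log2 scale. Of the 2 genes with a called probe after injury, Cuedc1 was called at both probes and Gdpd1 at 1 of 2. Gdpd1 had the largest range of all 87 genes in both comparisons, 1.46 and 1.65. The 2 probes of 1 gene were then set against each other within each array in the 4 genes called in either comparison with more than 1 tested probe. In injured tracheas the change at the probe of higher position exceeded that at the other by 0.96 for Cuedc1, by 0.36 for Gosr1 and by 0.12 for Aldoc, and was lower by 1.46 for Gdpd1. These genes were picked for a called probe in the same arrays, so the values are a description, without a test. The ratio of 2 probes shows unequal change only.

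**Figure D3:**
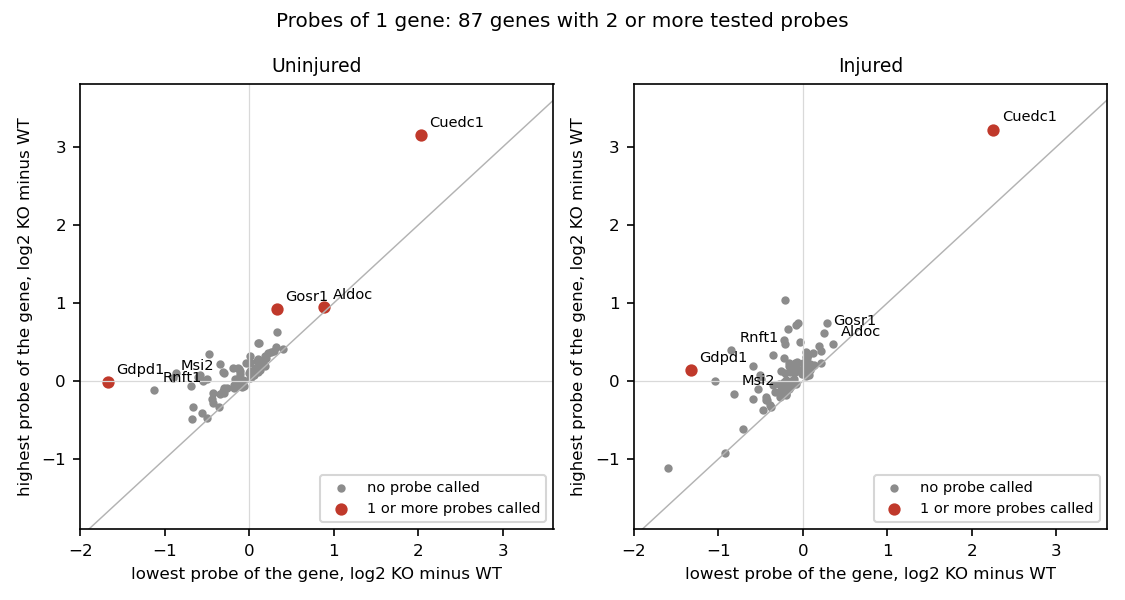
Lowest (x axis) against highest (y axis) log2 difference between Myd88KO and wild-type tracheas among the tested probes of 1 gene, for 87 member genes with 2 or more tested probes, in uninjured (left) and injured (right) tracheas; the diagonal marks equal probes. Cuedc1 lies high on both axes, whereas Gdpd1 has 1 probe near 0 and 1 near -1.33 after injury.

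Msi2, the RNA-binding Musashi-2 gene between Cuedc1 and TC1415719, was picked after its values were seen. Of its 5 tested probes, that at 88412887 differed by -0.91 without injury and by -0.82 (limma adjusted p 0.136) after it. That at 88414495 differed by -0.23 and -0.71 (adjusted p 0.0671), and the other 3 by -0.17 to -0.23 after injury. No Msi2 probe was called, except that 1 was called in each genotype comparison when arrays were weighted by quality. Rnft1, picked in the same way, had probes at -0.85 (adjusted p 0.365) and 0.39 (0.243) after injury, with opposite signs. BC089618 (83774846 to 83776030, plus strand) was lower by 2.57 in injured Myd88KO tracheas (SE 0.51; limma adjusted p 0.0184) and differed by -1.37 without injury. It was lower in 5 of 5 slides after injury, from -0.96 to -5.33, and was called there with normexp and with scanning day as a block. The mean injured difference of BC089618 within slides was -1.58 on the first scanning day and -4.04 on the second. On the second day it was -2.75 for replicate 1 and -5.33 for replicate 5. Replicate 3, scanned on the first day, gave -2.78.

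Over all 366 tested members, the median difference was 0.03 without injury and -0.06 after it, beside 0.04 and -0.03 over all tested probes. The median size of the difference after injury was 0.21 among members and 0.20 over all probes. Groups did not overlap for 15 members after injury and for 20 without it, beside 1.96% and 2.51% of all probes (4.10% and 5.46% of members). Signs were the same in both comparisons for 168 of 366 members (45.9%) and for 41.4% of all probes. By bins of 2 Mb, the called members after injury numbered 1 of 35 at 84 to 86 Mb, 4 of 44 at 86 to 88 Mb and 3 of 30 at 88 to 90 Mb, and 0 in each of the other 7 bins. Over all tested probes 0.380% were called. The call at 84 to 86 Mb was the unnamed probe, and those at 88 to 90 Mb were both Cuedc1 probes and TC1415719. Since the unnamed probe and TC1415719 had to differ, as said above, no grouping by position is read from these counts.

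The edges of the interval were set by position. Just inside the lower edge, 1700016K19Rik differed by -0.01 (SE 0.71) without injury and 0.86 after it, and just outside it Rph3al differed by 0.43 (SE 0.41) and -0.16. Just inside the upper edge, Gngt2 differed by 0.00 (SE 0.57) and -1.5, and just outside it Snf8 differed by 0.03 (SE 0.16) and -0.27.

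Member genes were also grouped by what they are known to do, in lists of 55 genes of which 52 were members and 46 (77 probes) were tested. In injured tracheas 2 of the 77 probes were called higher, both of Cuedc1, and 3 lower, Lpo, Tubd1 and Gdpd1, beside 0.150% and 0.230% of all probes. The lists were made with earlier results of these data known and hold the called genes themselves, so nothing is read from this count. The median difference was -0.04, beside -0.03 over all probes tested. In the ubiquitin group (8 genes, 12 probes tested) both Cuedc1 probes were higher and no probe was lower. In the tubulin and cilia group (3 genes, 4 probes) Tubd1 was lower. In the lipid and signalling group (6 genes, 11 probes) Gdpd1 was lower at 1 probe.

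Between genotypes, no probe was called in the matrix and adhesion group (6 genes, 10 probes), among developmental transcription factors (6 genes, 7 probes), in membrane traffic (7 genes, 19 probes) or in mitochondria (8 genes, 12 probes). Their median differences after injury were -0.37, -0.02, -0.09 and 0.03. In the matrix group, Col1a1, the main collagen gene of connective tissue, differed by -1.60, -1.40 and -1.11 at its 3 probes after injury (limma adjusted p 0.137, 0.236 and 0.158) and by -0.09, -0.09 and -0.05 without it. Nos2, the inducible nitric oxide synthase gene, was not tested.

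The interval also held members that responded to injury. In wild-type tracheas 14 members rose and 3 fell, 17 in all (4.64%), beside 5.26% of all probes, of which 3.24% rose and 2.03% fell. In Myd88KO tracheas 2 members (0.546%) were called, Spag5 and Srsf1, both higher, beside 0.376% of all probes. The difference between the injury responses was called for 0 members and 0% of all probes, at a smallest member adjusted p of 0.39 (limma). At an unadjusted p under 0.05 (limma) it was 32 members (8.74%), beside 10.4% of all probes. Each injury comparison shares its uninjured arrays with the uninjured genotype comparison.

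The largest rises in wild-type tracheas were those of Wfdc21, a member of the whey acidic protein family, by 4.10 (SE 0.76), BC089618 by 2.78 (SE 0.51) and Gngt2, a G protein gamma subunit gene, by 2.74 (SE 0.57). Their limma adjusted p values were 0.00202, 0.00202 and 0.00408. Wfdc21 read -2.59, -2.87, -4.62, -3.36 and -3.61 in uninjured and 1.00, -0.36, 0.71, 0.32 and 1.79 in injured wild-type tracheas, without overlap. In Myd88KO tracheas it read -0.02, -3.46, -4.01, -2.75 and -1.27 before and 0.93, -0.48, -1.10, -0.29 and -3.68 after injury, where replicate 5 was the lowest, and the difference was 1.38 (SE 0.76; adjusted p 0.332).

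Gngt2 was well above background on 1 uninjured and 5 injured wild-type arrays, so that its rise is set against a group mostly at background. With normexp it rose by 1.25, and its call was lost without uninjured wild-type replicate 1 or 5 or injured wild-type replicate 1, 2 or 5 (highest adjusted p 0.0129, limma). Slfn2, a Schlafen gene of immune cells, rose by 1.64 (adjusted p 0.00707) in wild-type tracheas, and differed by 0.19 (adjusted p 0.822) in Myd88KO tracheas. The Slfn2 call in wild-type tracheas was lost in 8 of 20 fits that left out 1 array (highest limma adjusted p 0.0214).

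Spag5, which encodes a protein of the mitotic spindle, rose in both genotypes. It read -2.42, -2.75, -1.06, -2.55 and -2.10 in uninjured and -0.28, 0.25, 0.71, 0.31 and -0.35 in injured wild-type tracheas. In Myd88KO tracheas it read -1.98, -3.0, -3.10, -2.64 and -2.54 before and 1.17, 0.11, 0.03, -0.03 and -1.79 after injury. The rise was 2.30 (SE 0.41; limma adjusted p 0.00167) and 2.55 (adjusted p 0.0052). Srsf1 rose by 0.70 (SE 0.13; adjusted p 0.00829) in Myd88KO tracheas at 1 of its 2 probes, and differed by 0.45 (adjusted p 0.0225) in wild-type tracheas. Among 20 fits that left out 1 array, 15 lost this Srsf1 call in Myd88KO tracheas (highest limma adjusted p 0.034). The Spag5 call in Myd88KO tracheas was lost in 8 of them (highest 0.0234). With only the Myd88KO arrays neither was called (limma adjusted p 0.0879 for Srsf1 and 0.0661 for Spag5).

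The falls in wild-type tracheas were those of Efcab5 by 1.52 on the log2 scale (SE 0.32; limma adjusted p 0.00478), Tspoap1 by 1.35 (SE 0.31; adjusted p 0.00785) and Nxph3, a neurexophilin gene, by 0.98 (SE 0.23; adjusted p 0.00777). Efcab5 was well above background on 5 uninjured and 1 injured wild-type arrays. With normexp its difference was -0.49 (adjusted p 0.114, limma), and its call was also lost without uninjured wild-type replicate 1, 4 or 5 or injured wild-type replicate 2 or 4 (highest adjusted p 0.0154). Of the 20 fits that left out 1 array, 13 lost the call of Tspoap1 and 11 that of Nxph3 (highest adjusted p 0.0244 and 0.0233), and both were lost with no filter on dim probes. The remaining rises, Abi3, Tmem132e, Adap2, Eme1, Ap2b1, Flot2, Brip1os, Scpep1 and Pigs, ran from 0.64 to 1.36. Among these, Eme1 encodes a subunit of a DNA junction endonuclease, Ap2b1 a clathrin adaptor subunit, Flot2 a flotillin and Pigs a subunit of the enzyme that attaches lipid anchors. Of the genes called for genotype, Brip1os alone was also called for injury, and it rose by 0.77 (SE 0.16; adjusted p 0.0038) in wild-type tracheas.

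**Figure D4:**
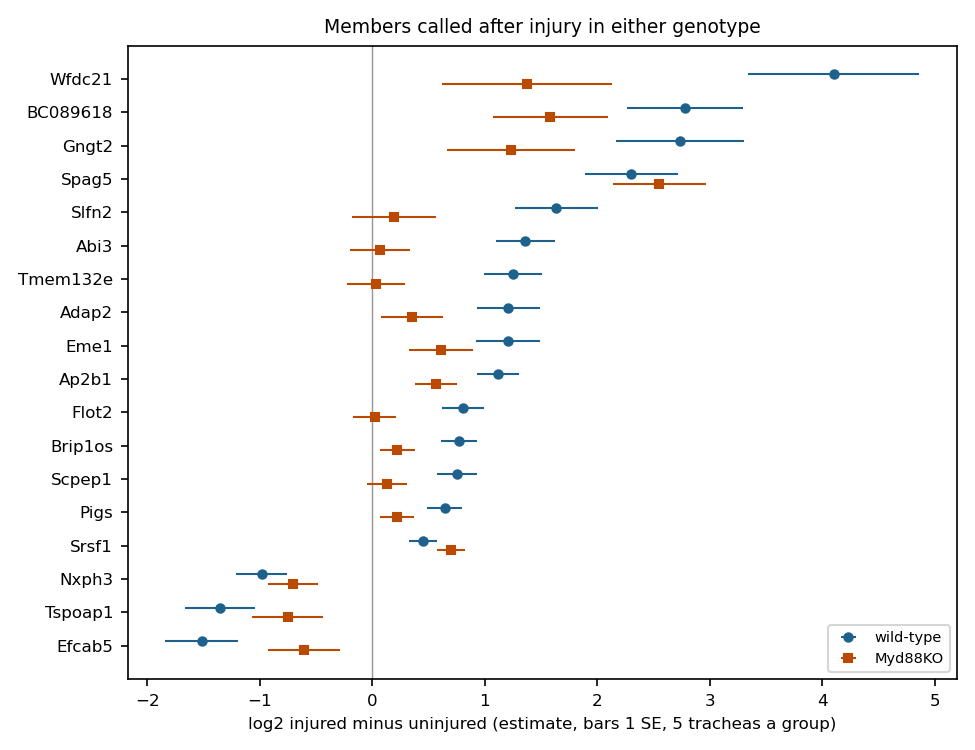
Log2 difference between injured and uninjured tracheas (x axis, estimate with bars of 1 SE, 5 tracheas per group) in wild-type (circles) and Myd88KO (squares) mice for the 18 member probes called in either genotype (y axis, gene). Wfdc21 has the largest rise in wild-type tracheas, 4.10, and Spag5 rises in both genotypes. The difference between the injury responses of wild-type and Myd88KO mice was called for none of these probes.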

How the data were processed

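Total RNA of 20 whole mouse tracheas was hybridised with 1 dye to Agilent whole mouse genome arrays, and the authors deposited the scanner output, an intensity per spot from Feature Extraction after background subtraction and not scaled between arrays. A deposited value table held the same intensities rounded, and was used as an alternative. Control spots and values marked as outliers (1960) were left out, spots of a probe were averaged, and log2 values were expressed relative to the 75th percentile of each array; the deposited values carry no log2 step. Probes well above background on at least 10 of 20 arrays (26063 of 41174) were tested in R 4.3.3 with limma 3.58.1, all groups sharing 1 estimate of the spread, with Benjamini-Hochberg adjustment over all of them within a comparison and a threshold of 0.01. The methods of the study name a one-way test at the same threshold, which was run as an alternative.

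A mouse gene table (GRCm38.p6, names only) named 303 members from their accession and 91 from their symbol. Older symbols named a further 37, while 126 have the array's own name. Members and gene lists were chosen with earlier results of these data known. Named genes were Cuedc1, the members called in either genotype comparison with their other probes, members in the study's list of transcripts, the largest called injury responses, the lists, the neighbours of Cuedc1 and the probes at the edges; others are said to have been picked later. The script was tested on simulated data. Arrays with the same replicate number shared a slide. Their deviations from the group means correlated from -0.26 to 0.48 (30 pairs), so that the replicate number was kept as an alternative. With 5 arrays per group, their number limits the precision. The labels give 5 tracheas per group as separate samples. The alternatives were another background correction, normalization, filter, array weights, blocks for slide and scanning day, the 2 groups of a comparison alone, and leaving out each array.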

Additional observations from a re-analysis of the deposited data

Results flagged for a closer look

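Of 196 groups of 5 tracheas examined over the 49 member probes named above, 4 held a trachea set apart from the other 4 by Dixon's criterion, which chance alone meets in about 1 of 20 groups. The second Ap2b1 probe read -0.0204 in uninjured Myd88KO replicate 3, against -0.35 to -0.26 in the others. Mpo read -3.18 in uninjured Myd88KO replicate 5, against -4.19 to -3.91, and -4.70 in injured Myd88KO replicate 1, against -4.07 to -3.87. The second Col1a1 probe read 2.44 in uninjured wild-type replicate 3, against 1.95 to 2.03. None of the probes called between genotypes was among them.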

How the results depend on the processing

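Both Cuedc1 probes were called after injury under every alternative given for single probes. The methods' one-way test is not among these, since it is given as counts of members only. The values of the Cuedc1 probes without injury chose the interval. Leaving out 1 array gave Cuedc1 differences from 2.14 to 2.37 and from 3.07 to 3.34 after injury, and from 1.93 to 2.13 and from 3.06 to 3.24 without it. The count of 8 members called after injury was 7 to 8 when 1 array was left out, 4 with only the arrays compared and 17 before and 3 after adjustment by the methods' one-way test. The count of 8 without injury was 6 to 8 when 1 array was left out, and 24 and 4 by that test. The 17 members called after injury in wild-type tracheas were 34 with array weights, 27 with scanning day as a block, 44 and 9 by the one-way test, and 7 to 22 when 1 array was left out. That count was lowest without uninjured wild-type replicates 2, 4 and 5 or injured wild-type replicate 1, and highest without injured Myd88KO replicate 5. In Myd88KO tracheas the count of 2 was 1 with normexp background correction, with quantile normalization and with no filter, 22 with array weights, 0 with only the arrays compared, 15 and 0 by the one-way test, and 0 to 12 when 1 array was left out, the 12 without injured replicate 5. The difference between injury responses called 0 members under every alternative run.

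With the replicate block, which is also the slide, 7 members were called without injury, 7 after it, 19 and 3 for injury and 0 for the difference; Brip1os and Aldoc lost their calls. With normexp the unnamed probe was not called after injury (0.67), and BC089618 was. The causes of these changes were not tested. Signals near background limit the unnamed probe and TC1415719 to bounds. These bounds hold for the main processing only, since the differences with normexp were smaller.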
